A study of Mus musculus with 6 samples.

Results

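Dot1l and 4 genes of its AF10 and AF9 partner families were examined in whole testes of WT mice and of Trf2-/- mice, in which the gene of the TBP-related factor Trf2, named Tbpl1 in the count table, was inactivated. The 5 genes are Dot1l, Mllt10, Mllt6, Mllt1 and Mllt3, out of 26743 genes counted. Mllt10 was chosen because it is abundant and lower in Trf2-/- than in WT testes, and the other 4 because they are its partners or paralogues, so that the group was selected on the counts of Mllt10 in this comparison. The fall of Mllt10 between the genotypes is therefore given as a description, with no test. The male mice were 21 days old, with 3 mice of each genotype and 1 total RNA library, depleted of ribosomal RNA, per mouse. Trf2-/- mice lack Trf2 in all cells, and the testis is a mixture of germ cells and somatic cells, so that in these libraries fewer cells of a type and less RNA per cell cannot be told apart.

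Dot1l is the enzyme that adds methyl groups to lysine 79 of histone H3, a mark found over the bodies of transcribed genes. It is the only known enzyme for this mark in mammals and, unlike most histone lysine methyltransferases, has no SET domain. AF10, the product of Mllt10, and AF17, the product of Mllt6, are paralogues with PHD fingers. Both proteins bind Dot1l and aid its step to higher methylation states. ENL, the product of Mllt1, and AF9, the product of Mllt3, are paralogues whose YEATS domains read acylated histone lysines and which bind either Dot1l or the super elongation complex, which holds the kinase P-TEFb and releases paused RNA polymerase II. Several of these genes were first found as fusion partners of the MLL gene in leukaemia. In the testis, the first wave of spermatogenesis reaches the haploid round spermatid at about the age studied here, and histones are later removed from the elongating spermatid.

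Total counts were 21582123 to 29859347 in the WT libraries and 15187062 to 24530489 in the Trf2-/- libraries. All 5 genes passed the filter on low counts, as did 16924 genes in all. The lowest count of any member was 241 reads, with a counting error of 6.44%, and the highest was 20746 reads, with a counting error of 0.694%. Tbpl1 was counted with 8840, 7391 and 6119 reads in WT mice 1 to 3 and with 1586, 1500 and 882 reads in Trf2-/- mice 1 to 3, a log2 fold change of -2.27 with a standard error of 0.06. Levels are in CPM, the reads of a gene relative to all reads of the library, scaled with edgeR's TMM factors. Over all 16924 genes the median log2 fold change was 0.04, and positive values are higher in Trf2-/- testes.

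Since Trf2 is a relative of TBP, a factor that works at transcription start sites, the start regions are shown for those members with a RefSeq start upstream of their own annotated exons. RefSeq promoter windows (GRCm38.p6) were held for 5 of 5 members, 8 windows in all, and each matched the NCBIM37 genome exactly once. The 100 bases before the start are written 5′ to 3′ on the gene's strand, with capitals for 5 short motifs, each searched on both strands. The GC box, bound by Sp1-type factors, was spelled GGGCGG. The CCAAT box was searched by its own letters. The TATA element, where TBP binds, was spelled TATAAA. The cAMP response element was spelled TGACGTCA, and its shorter form, which lies within it, TGACG.
Mllt10, first start, chr2:17976764-17976863, plus strand: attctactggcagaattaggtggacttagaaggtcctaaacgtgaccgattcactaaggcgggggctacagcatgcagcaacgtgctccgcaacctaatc
Dot1l, chr10:80217848-80217947, plus strand: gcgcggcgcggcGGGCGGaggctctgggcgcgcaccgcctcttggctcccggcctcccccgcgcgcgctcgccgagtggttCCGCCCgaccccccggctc
Mllt6, chr11:97524626-97524725, plus strand: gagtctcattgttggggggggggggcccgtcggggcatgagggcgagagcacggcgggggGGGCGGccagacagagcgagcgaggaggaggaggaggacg
Mllt3, start of the long transcripts, chr4:87679312-87679411, minus strand: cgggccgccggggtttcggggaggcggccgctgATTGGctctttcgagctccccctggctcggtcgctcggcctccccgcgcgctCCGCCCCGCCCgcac

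The first Mllt10 start held none of the searched letters, and its 100 bases were 51% G or C. A start further into the Mllt10 gene, at position 17986212, had 79% G or C and a GC box, and 4 annotated transcripts began within 200 bases of it, against 1 at the first start. The Dot1l window was 84% G or C, that of Mllt6 74%, that of Mllt1 85% and that of the long Mllt3 transcripts 79%. The median was 55% over all 32817 RefSeq windows. The other Mllt3 window had 43% and a further Mllt10 window, with its start at position 17977355, had 39%. A GC box was present within the 100 bases in 5 of the 8 member windows and at 1 start or more of all 5 genes. It was present in 24.7% of all windows of that length. None of the 8 windows held the TATA element in these bases, nor the cAMP response element or its shorter form, and 5.57%, 1.15% and 10.5% of all windows did, in that order. CCAAT was present in 2 of the 8, both at Mllt3, and in 18.9% of all windows. These counts describe letters in the windows, and binding was not measured here.

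Mllt10 was by far the most abundant of the 5 transcripts. Per kb of gene length, its level in WT testes was 118 ± 4.78 CPM per kb (mean ± SD, n = 3), rank 397 of 16924 genes. Mllt1 followed at 16.2 ± 2.44, Dot1l at 13.1 ± 1.74 and Mllt6 at 12.3 ± 0.990, and Mllt3 was lowest at 1.58 ± 0.0598 CPM per kb. The WT ranges of Mllt1 and Dot1l overlapped, as did those of Dot1l and Mllt6, so that the place of Dot1l is not separated by the spread between mice. Those of Mllt1 (14.7 to 19.0) and Mllt6 (11.3 to 13.3 CPM per kb) did not overlap. In Trf2-/- testes the order was Mllt10 at 71.0 ± 1.35, Mllt6 at 15.2 ± 3.23, Mllt1 at 12.6 ± 0.917, Dot1l at 11.3 ± 0.354 and Mllt3 at 1.82 ± 0.0760 CPM per kb. Here the ranges of Mllt6 and Mllt1 overlapped.

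**Figure D1:**
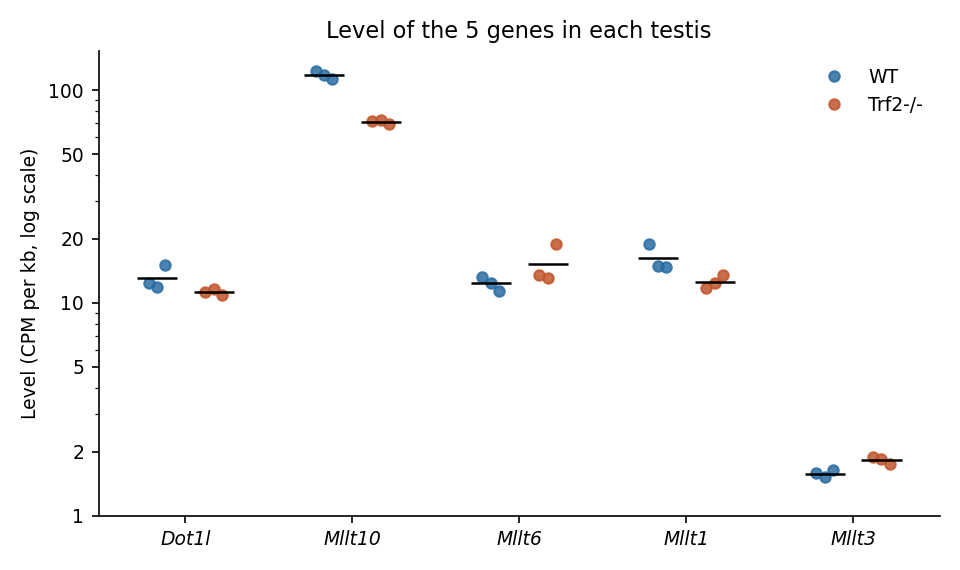
Level of each of the 5 genes in every mouse, in CPM per kb of gene length on a log axis, with points for the 3 WT and 3 Trf2-/- mice and a bar at each genotype's mean. Mllt10 lies well above its partners in both genotypes, at 118 CPM per kb in WT and 71.0 in Trf2-/- testes, and Mllt3 lies lowest.

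AF10 and AF17 form the first pair. Mllt10 (ENSMUSG00000026743, chr2:17976898-18134017, plus strand, NCBIM37) was counted with 20746, 18185 and 13897 reads in WT mice 1 to 3 and with 10557, 9899 and 6467 reads in Trf2-/- mice 1 to 3. Scaled for depth, these were 722, 696 and 666 CPM in WT and 418, 424 and 408 CPM in Trf2-/- testes. Every Trf2-/- mouse was below every WT mouse, and the mice of each genotype lay close together. The means were 695 ± 28.1 and 417 ± 7.94 CPM (SD, n = 3), so that Trf2-/- testes held 60.0% of the WT level. The fitted log2 fold change was -0.74 with a standard error of 0.05, rank 1246 of 16924 from the lowest, and its range over the other settings tried was -0.77 to -0.64.

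Mllt6 (ENSMUSG00000038437, chr11:97524728-97546777, plus strand), the paralogue, had 99.2, 92.3 and 84.4 CPM in WT mice 1 to 3 and 101, 97.8 and 141 CPM in Trf2-/- mice 1 to 3. Trf2-/- mouse 3 stood at 1.42 times the mean of the other 2 mice of its genotype, whereas those 2 lay beside the highest WT mouse. The means were 92.0 ± 7.38 and 113 ± 24.0 CPM (SD, n = 3), with a log2 fold change of 0.29, a standard error of 0.13 and an adjusted p of 0.118 (edgeR quasi-likelihood test, Benjamini-Hochberg over all 16924 genes). Mllt6 thus did not pass the test while its fitted value had the sign opposite to that of Mllt10. Without Trf2-/- mouse 3 the log2 fold change was 0.11, with an adjusted p of 0.205. In that mouse, 573 genes, 3.39% of those tested, lay as far as Mllt6 above the other 2 mice of the genotype.

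Dot1l itself (ENSMUSG00000061589, chr10:80217951-80258206, plus strand), the methyltransferase, had 102.8, 98.2 and 125.2 CPM in WT mice 1 to 3 and 92.6, 96.4 and 90.6 CPM in Trf2-/- mice 1 to 3. The genotypes did not overlap, but WT mouse 2 and Trf2-/- mouse 2 nearly met, and WT mouse 3 stood at 1.24 times the mean of the other 2 WT mice. The means were 109 ± 14.4 and 93.2 ± 2.93 CPM (SD, n = 3), 85.7% of WT. The log2 fold change was -0.22, with a standard error of 0.09, a 95% interval of -0.41 to -0.03 before adjustment and an adjusted p of 0.0804 in the edgeR test, so Dot1l did not pass. Without WT mouse 3 the log2 fold change was -0.11, with an adjusted p of 0.198, and the adjusted p ran from 0.0438 to 0.251 over all the settings tried.

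ENL and AF9 form the second pair. Mllt1 (ENSMUSG00000024212, chr17:57032035-57074836, minus strand) had 69.1, 54.0 and 53.5 CPM in WT mice 1 to 3 and 42.8, 45.2 and 49.4 CPM in Trf2-/- mice 1 to 3. All Trf2-/- mice were below all WT mice, and WT mouse 1 stood at 1.29 times the mean of the other 2. The means were 58.9 ± 8.85 and 45.8 ± 3.33 CPM (SD, n = 3). Mllt1 fell, with a log2 fold change of -0.37, a standard error of 0.10 and an adjusted p of 0.0268 in the edgeR test. The call was lost without WT mouse 1 (log2 fold change -0.24, adjusted p = 0.0638), without Trf2-/- mouse 1 (adjusted p = 0.0709) and without Trf2-/- mouse 2 (adjusted p = 0.0544).

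Mllt3 (ENSMUSG00000028496, chr4:87415829-87679268, minus strand) was counted with 397, 346 and 298 reads in WT mice 1 to 3 and 417, 375 and 241 reads in Trf2-/- mice 1 to 3. These were 13.8, 13.2 and 14.3 CPM in WT and 16.5, 16.1 and 15.2 CPM in Trf2-/- testes. Every Trf2-/- mouse was above every WT mouse, by a small margin. The means were 13.8 ± 0.523 and 15.9 ± 0.664 CPM (SD, n = 3), 116% of WT. The log2 fold change was 0.21, with a standard error of 0.08, a 95% interval of 0.03 to 0.40 before adjustment and an adjusted p of 0.0789 in the edgeR test, so Mllt3 did not pass.

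Of the 4 partners of Mllt10, 1 passed an adjusted p of 0.05 in edgeR's test, beside 31.4% of all genes tested. None of the 4 reached a 2-fold change, beside 4.9% of all genes. The genotypes did not overlap for 3 of the 4, with Dot1l and Mllt1 lower and Mllt3 higher in Trf2-/- testes. Of all genes, 49.2% did not overlap, 26.8% lower and 22.3% higher. Counts over 4 genes this near the background are no result about the partners. The p-values set each genotype difference against the variation between mice of a genotype, estimated with information shared over genes.

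**Figure D2:**
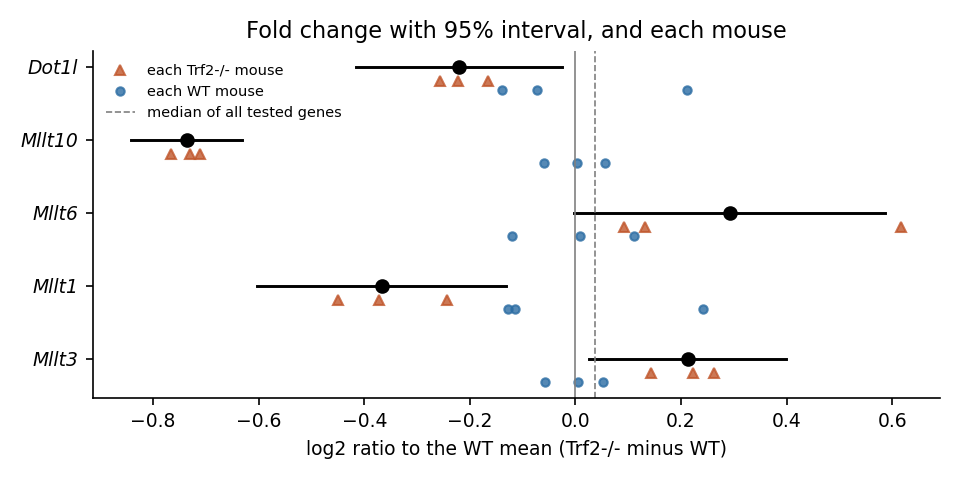
Log2 fold change of each of the 5 genes, Trf2-/- against WT, as a black point with a bar for its 95% interval before adjustment, with each Trf2-/- mouse as a triangle and each WT mouse as a circle, relative to the WT mean, and a dashed line at the median of all 16924 genes. Mllt10 is at -0.74, and its 4 partners run from -0.37 for Mllt1 to 0.29 for Mllt6. Mllt10 was chosen for its decrease in this comparison, so its distance from the partners and its interval are a description only.

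The makeup of each pair was compared per kb, as a description with no test, since Mllt10 chose the group. Mllt10 stood at 9.24, 9.56 and 10.0 times the level of Mllt6 in WT mice 1 to 3 and at 5.28, 5.50 and 3.68 times in Trf2-/- mice 1 to 3. Mllt10 thus made up 90.6% ± 0.343 of the summed level of the AF10 and AF17 genes in WT and 82.4% ± 3.31 in Trf2-/- testes (SD, n = 3), and remained the main member of the pair in every mouse. Mllt1 stood at 12.0, 9.81 and 9.01 times the level of Mllt3 in WT mice 1 to 3 and at 6.23, 6.76 and 7.81 times in Trf2-/- mice 1 to 3. Mllt10 exceeded Dot1l 9.12 ± 1.41 times in WT and 6.31 ± 0.0913 times in Trf2-/- testes. The summed level of Mllt10, Mllt6, Mllt1 and Mllt3 was 148 ± 7.95 CPM per kb in WT and 101 ± 2.81 in Trf2-/- testes. Nearly all of this difference was that of Mllt10 itself, at 118 and 71.0 CPM per kb, which was chosen for its decrease. Among the others the mean of Mllt1 was lower and those of Mllt6 and Mllt3 were higher in Trf2-/- testes. These are transcript levels, and protein and histone methylation were not measured here.

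The wider pathway was read from lists of the complexes around Dot1l, which held 76 genes, 71 with enough reads for the test. In Trf2-/- testes 10 were lower and 8 higher by edgeR's test, 14.1% and 11.3%, beside 20.2% and 11.2% of all genes. The counts of each list below stand beside the same shares, and in lists this small are no result about a list. Their median log2 fold change was 0.08, beside 0.04 for all genes. Without TMM, scaled by library size alone, 7 were lower and 29 higher. That scaling moved all genes alike, with 2692 lower and 4265 higher, against 3423 and 1889 in the reported fit. Of the 10 lower genes 7, and of the 8 higher genes 3, kept their call when each mouse was left out in turn. Those that lost it in at least 1 of the 6 fits were Mepce, Wac and Brd1 among the lower genes and Aff4, Hexim1, Phf14, Phf16 and Ehmt1 among the higher ones. The count of higher genes was 3 without WT mouse 2 and 4 without WT mouse 1.

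Among genes purified with Dot1l, 1 of 3 passed. Ctnnb1, which encodes beta-catenin, rose by a log2 fold change of 0.32 (SE 0.04, adjusted p = 0.0010, edgeR), and the large scaffold gene Trrap had 0.15 with an adjusted p of 0.0576. Among the 11 tested genes of the super elongation complex, the other home of ENL and AF9, none was lower. In this list 3 were higher, beside 11.2% of all genes. They were the scaffold genes Aff1 (log2 fold change 0.36, adjusted p = 0.0038) and Aff4 (0.18, adjusted p = 0.0201) and the ELL-associated factor Eaf1 (0.31, adjusted p = 0.0086). The call of Aff4 held in 2 of the 6 fits that left out a mouse. Cdk9 and the cyclin T genes, which form P-TEFb, did not pass.

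Of 5 genes that control P-TEFb, 2 were lower and 1 higher. Larp7, which stabilises the 7SK RNA that holds P-TEFb inactive, fell by 0.53 on the log2 scale (SE 0.07, adjusted p = 0.0009, edgeR). Mepce, the enzyme that caps 7SK, had -0.18 with an adjusted p of 0.0484 and kept its call in 1 of the 6 fits that left out a mouse. Hexim1, the inhibitor that 7SK carries to P-TEFb, rose by 0.35 on the log2 scale (adjusted p = 0.0169). The members of this list that passed thus moved in both directions.

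Ubiquitination of histone H2B is known to stimulate Dot1l. Of 5 genes in that list 2 were lower, and the larger change was that of Rnf40, a subunit of the E3 ligase, which fell by 0.63 on the log2 scale (SE 0.05, adjusted p = 0.0002, edgeR). Wac, an adaptor of the ligase, had -0.14 with an adjusted p of 0.0442, and kept its call in 1 of the 6 fits without a mouse. None of the 6 tested genes of the Paf1 complex, which recruits the ligase to polymerase, passed, with -0.19 for Ctr9 (adjusted p = 0.101) and -0.03 for Paf1 (adjusted p = 0.794).

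Among 10 genes of the MLL complexes, which methylate lysine 4 of histone H3, 2 were lower, beside 20.2% of all genes, and none higher. Psip1, a chromatin tether of MLL, fell by 0.40 on the log2 scale (SE 0.06, adjusted p = 0.0020, edgeR), and the core subunit gene Ash2l by 0.31 (SE 0.05, adjusted p = 0.0029). Of 9 relatives with PHD fingers or a YEATS domain, 2 were lower and 2 higher. Yeats4, a YEATS reader in histone acetyltransferase and remodelling complexes, fell by 0.72 on the log2 scale (SE 0.05, adjusted p = 0.0002), a value close to that of Mllt10. Brd1 had -0.21 (adjusted p = 0.0169), Phf14 0.15 (adjusted p = 0.0487) and Phf16 0.18 (adjusted p = 0.0491).

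Mllt11, which shares its name with the group only through MLL fusions in leukaemia, had the largest change in these lists, at -1.30 on the log2 scale (SE 0.10, adjusted p = 0.0002, edgeR), and was the only one of the 71 past 2-fold, beside 4.3% of all genes lower and 0.609% higher by 2-fold. Mllt4, a junction protein also named for such a fusion, had -0.08 (adjusted p = 0.246). Of 19 other histone lysine methyltransferase genes, 1 was lower, Ehmt2 at -0.27 (adjusted p = 0.0075), and 1 higher, Ehmt1 at 0.24 (adjusted p = 0.0230). Both encode subunits of the enzyme that dimethylates lysine 9 of histone H3. Of 5 leukaemia targets of Dot1l, the 4 Hoxa genes had 14 reads or fewer in every mouse and were not tested, and Meis1, at 14.3 CPM in WT and 16.9 CPM in Trf2-/- testes, stood at 0.23 on the log2 scale (adjusted p = 0.207).

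**Figure D3:**
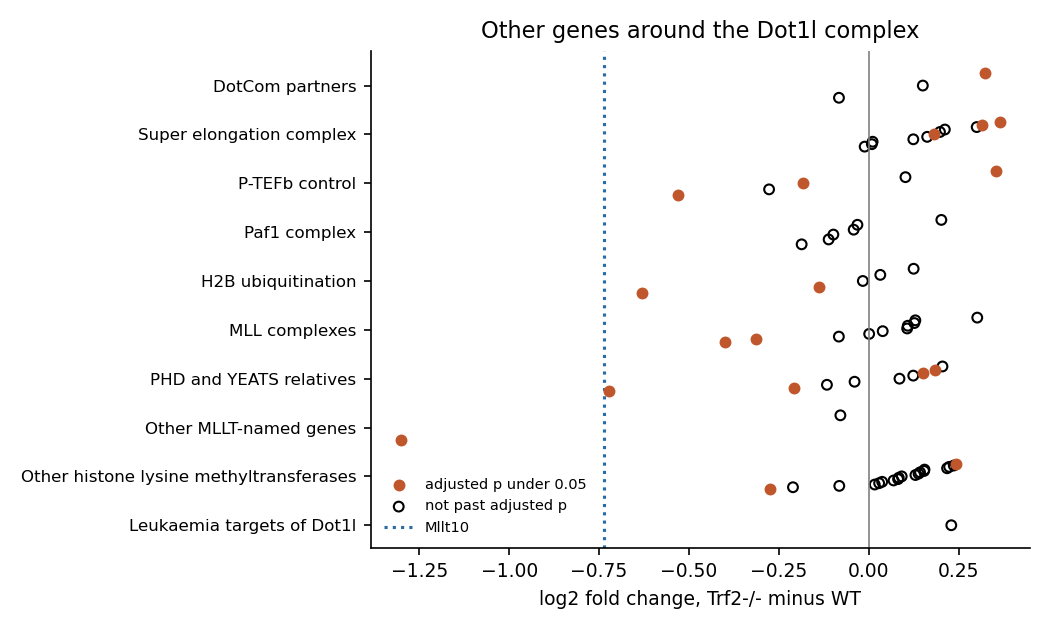
Log2 fold change, Trf2-/- against WT, of the tested genes in each list of the pathway, with 1 point per gene, filled where the adjusted p was under 0.05, and a dotted line at the value of Mllt10, -0.74. Genes past the test lie on both sides of 0, and Mllt11 at -1.30 lies lowest.

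Marker genes of testis cells moved with the genotype as well. All 7 pachytene spermatocyte markers were lower in Trf2-/- testes, beside 20.2% of all genes. The markers summed to 5551 to 5969 CPM in WT and 3794 to 4591 CPM in Trf2-/- mice. Round spermatid markers were low in both genotypes, at 12.4 to 13.3 CPM in WT and 5.94 to 8.01 CPM in Trf2-/- mice, and 5 of 6 tested were lower. For elongating spermatids the sums were 5.70 to 6.74 CPM in WT, and the 3 Trf2-/- mice stood at -2.92 to -2.05 log2 units from the WT mean. All 3 tested markers were lower, and the other 4 markers counted had at most 4 reads in any mouse, too few to compare. The 5 round and 3 elongating spermatid markers called lower passed the low-count filter only through the WT mice. A marker that passes through 1 genotype alone can hardly be called in the other direction, so these calls are a description. The round spermatid markers below the filter had 9 to 17 reads in the WT mice and 0 or 1 read in the Trf2-/- mice, and were not tested. The other tested round spermatid marker, counted above the filter in both genotypes, was not called. Prm2, Prm3 and Smcp had 0 reads in every Trf2-/- mouse and 0 to 4 reads in the WT mice, and Tnp1 had 1 to 4 reads in WT and 1 read in each Trf2-/- mouse. The part of these shifts in the lower level of Mllt10 and Mllt1 was not tested.

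Markers of other cells were level or higher, and 11.2% of all genes were called higher. Early spermatocyte markers summed to 1851 to 1864 CPM in WT and 2043 to 2210 CPM in Trf2-/- mice, with 3 of 7 higher, and Sertoli cell markers to 1798 to 1912 and 2033 to 2217 CPM, with 4 of 9 higher. Macrophage markers summed to 178 to 201 and 203 to 400 CPM, with 5 of 8 higher. Of the spermatogonia markers 1 of 9 was higher (sums of 260 to 277 and 268 to 354 CPM), and likewise 1 of 7 for Leydig cells (235 to 408 and 229 to 386 CPM), 1 of 5 for peritubular cells (289 to 371 and 362 to 416 CPM) and 1 of 4 for endothelial cells (28.0 to 33.4 and 35.3 to 44.2 CPM). These single calls, at 11.1% to 25% of small lists, are no result about those cells. No T cell marker had enough counts to be tested, and Cd3g was at 0 in every WT mouse. The part of these cell types in the members' values was not tested.

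**Figure D4:**
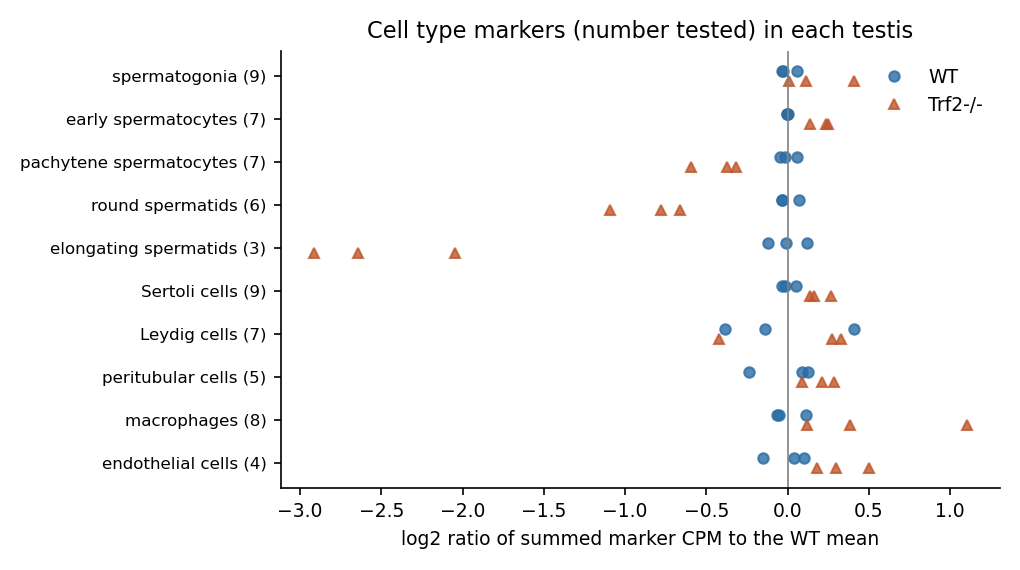
Log2 ratio of the summed CPM of each list of cell type markers to the mean of the WT mice, with circles for the 3 WT and triangles for the 3 Trf2-/- mice. Pachytene spermatocyte and round and elongating spermatid markers were lower in every Trf2-/- mouse than in every WT mouse, with sums of 3794 to 4591 against 5551 to 5969 CPM for the pachytene list. The spermatid sums hold only tested markers, most of which passed the low-count filter through the WT mice.

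The neighbours of the members were examined since reads of overlapping genes can be shared. Dnajc1, which encodes a chaperone of the endoplasmic reticulum and lies on the minus strand, overlaps the 3′ end of Mllt10 over 16737 bases, of which 749 are exonic in both. Dnajc1 was counted with 1875, 1638 and 1312 reads in WT mice 1 to 3 and with 1765, 1534 and 1125 reads in Trf2-/- mice 1 to 3, a log2 fold change of 0.11 (adjusted p = 0.129, edgeR). Its values thus did not follow those of Mllt10, whose counts were higher throughout. The transcript 2810030E01Rik, 6220 bases before Mllt10, was rare, at 38, 47 and 32 reads in WT mice 1 to 3 and 72, 56 and 41 reads in Trf2-/- mice 1 to 3, and rose by 0.76 on the log2 scale (adjusted p = 0.0162). The libraries were stranded, but the strand setting of the counting is not given in the sources used here.

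Ap3d1, which encodes an adaptor protein subunit and precedes Dot1l, fell by 0.22 on the log2 scale (SE 0.04, adjusted p = 0.0048, edgeR), the same size as the fitted value of Dot1l, and Plekhj1, 639 bases after Dot1l, had an adjusted p of 0.963. Beyond the 3′ end of Mllt1, at a distance of 3708 bases and on the opposite strand, 1700061G19Rik had 61, 71 and 41 reads in WT mice 1 to 3 and 11, 11 and 4 reads in Trf2-/- mice 1 to 3, a log2 fold change of -2.49 (adjusted p = 0.0005). Beside Mllt6, Cisd3 had 0.32 (adjusted p = 0.146) and Gm11613 0.12 (adjusted p = 0.785).

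The genes whose levels across the 6 mice were most like those of Mllt10 were found by the root mean square distance in log2 CPM, centred on the WT mean. Mif4gd was closest, at a distance of 0.0250 log2 units, with 304 CPM in WT and 182 CPM in Trf2-/- testes. Dixdc1 followed at 0.0259, with 114 and 70.2 CPM, and Rai14 at 0.0339, with 463 and 280.0 CPM. For Dot1l the closest were Stra13 at 0.0365, Ipo11 at 0.0488 and Zscan30 at 0.0519 log2 units, all less abundant than Dot1l in CPM. The distances come from the same 6 libraries and describe likeness of levels alone.

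**Figure D5:**
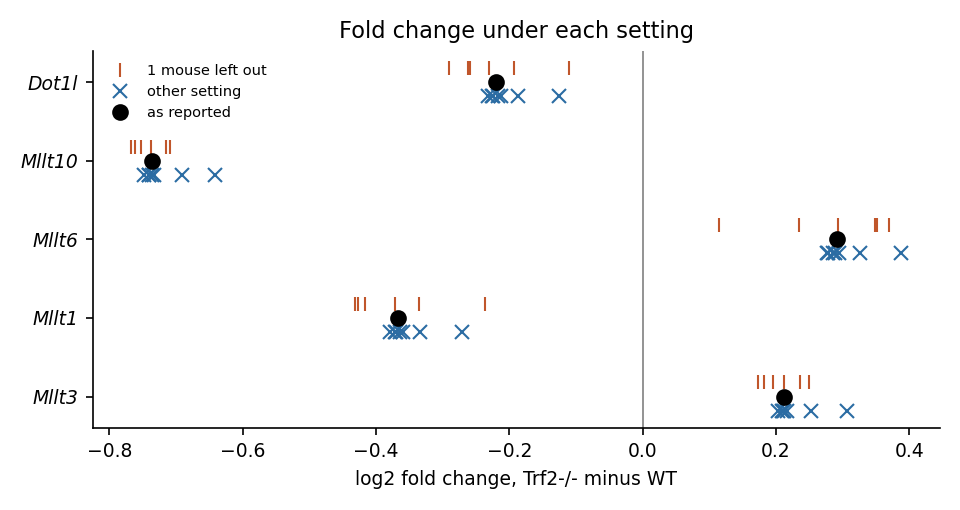
Log2 fold change of each of the 5 genes, Trf2-/- against WT, under the reported settings and each alternative, with a black point for the reported value, a bar for each fit without a mouse and a cross for each other setting. Mllt10 lies between -0.77 and -0.64 throughout, and the ranges are -0.29 to -0.11 for Dot1l, 0.11 to 0.39 for Mllt6, -0.43 to -0.24 for Mllt1 and 0.17 to 0.31 for Mllt3.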

How the data were processed

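Whole testes of 3 WT and 3 Trf2-/- mice were sequenced as single-end, stranded total RNA libraries. The authors deposited raw read counts per gene for 26743 genes. Their processing notes name CASAVA 1.8.2, TopHat2 2.0.10, Bowtie2 2.1.0, HTSeq 0.5.4p3, DESeq2 1.0.19 and the build mm9, which is NCBIM37. The annotation release and strand setting are not given in the sources used here. The table holds 12 other per-sample columns of normalized values, which were not used.

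Genes passing edgeR's filterByExpr (16924) were fitted in edgeR 4.0.16 (R 4.3.3) with TMM factors and the quasi-likelihood test, adjusted by Benjamini-Hochberg over all of them, and called at an adjusted p under 0.05. Intervals are at 95% and unadjusted. Total counts of 15187062 to 29859347 put 3 reads, the floor, at 0.104 to 0.189 CPM. Levels per kb used the deposited gene lengths. DESeq2 1.42.0, library size alone, DESeq2's size factors, other low-count filters, a replicate block, an adjusted p of 0.01 and each mouse left out were the alternatives, and removal of a GC trend per library was added after seeing the data. The fit was tested on simulated data.

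The 5 members and the lists were chosen with earlier results of these data known. Named genes were the members, Tbpl1, neighbours of members, in each list up to 3 called genes per direction with the smallest p (where fewer than 2 passed, the 2 most abundant), and the 3 genes nearest in pattern to Mllt10 and to Dot1l. Prm2, Prm3, Smcp and Cd3g are named as markers at 0 in a genotype, and Tnp1 beside them. Gene positions are from GENCODE M1 on NCBIM37, and promoter sequences from RefSeq on GRCm38.p6, placed on NCBIM37 by exact match.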

Additional observations from a re-analysis of the deposited data

How the results depend on the processing

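No member's fold change turned direction under any alternative run. Counted with Mllt10, which was chosen for its fall and is past the threshold by that choice, 2 of the 5 members passed in the reported fit, 1 with the replicate block or at an adjusted p of 0.01 (Mllt10 itself), 4 without a low-count filter, and 1 to 2 with each mouse left out. Of all genes tested, 31.4% passed in the reported fit, 27.1% with the block, 16.6% at 0.01, 20.6% without the filter and 19.8% to 30.2% with each mouse left out. With library size alone 41.1% passed, and with the GC trend removed 33.4%. Without the filter, Dot1l (-0.22, adjusted p = 0.0438, edgeR) and Mllt6 (0.30, adjusted p = 0.0466) passed. Scaled by library size alone, which moved the median of all genes by 0.09 log2 units, Mllt6 (0.39) and Mllt3 (0.31) passed, Mllt1 did not (-0.27, adjusted p = 0.0613), and the Trf2-/- levels were 11.6 CPM per kb for Dot1l and 73.3 for Mllt10. With the GC trend removed, chosen after seeing the data, Mllt3 passed at 0.25 (adjusted p = 0.0441). Mllt1 lay between -0.43 and -0.24, and the Trf2-/- level of Mllt10 between 69.4 and 71.5 CPM per kb, with each mouse left out. Of the other genes of the pathway, 8 were higher in the reported fit, 29 with library size alone, 15 with the GC trend removed, 3 at an adjusted p of 0.01 and 3 to 9 with each mouse left out. The lower genes made up 55.6% of the pathway calls in the reported fit and 19.4% with library size alone. Over all genes, 3423 were lower and 1889 higher in the reported fit, and 2692 and 4265 with library size alone. With the GC trend removed these counts over all genes were 2964 and 2695. The 10 lower and 8 higher genes kept their sign with library size alone, where 7 and 8 of them passed. Among the named list genes not called in either fit, the values of Paf1 (0.06) and Mllt4 (0.02) turned. Signs of the unnamed list genes are not given here. The causes were not tested.

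Same-numbered mice of the 2 genotypes deviated from their group means with correlations of -0.10 to -0.03, and 0 of 6 samples correlated best with its own number. These values gave no sign that the numbers pair the mice. They cannot exclude a pairing, and the sample labels name none. With the replicate block, Mllt1 had -0.36 (adjusted p = 0.0545, edgeR). Depth limited Mllt3 most, at 241 reads or more.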
